A study of Mus musculus with 9 samples.

Results

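The 10 genes described here encode the core of the microRNA (miRNA) pathway: the nuclear processing enzyme Drosha and its RNA-binding partner Dgcr8, the cytoplasmic nuclease Dicer1, the 4 Argonaute proteins Ago1, Ago2, Ago3 and Ago4, and the 3 GW182 proteins Tnrc6a, Tnrc6b and Tnrc6c. They were chosen by name, as the rows of the count table whose NCBI Gene number maps to these mouse symbols. All 10 of 10 were found among the 27179 gene rows of the table, and all 10 were among the 13129 genes with enough counts to be tested. The table holds RNA immunoprecipitation sequencing (RIP-seq), which sequences the RNA that is recovered together with a protein. Splenic B cells of wild-type mice, obtained as CD43- cells, were activated for 72 h with 5 ug/mL CD40L (an anti-CD40 antibody in the methods of the study), 10 ug/mL antibody against IgM and 20 ng/mL IL-4, and these conditions were shared by every group. The lysate was precipitated with an antibody to UPF1 in its phosphorylated form (p-UPF1 group) or with normal rabbit IgG (IgG group), and RNA was also taken from the lysate before precipitation (input group), with 3 libraries in each group. The labels do not say whether the 3 libraries of a group came from separate animals or cultures, so that each P-value measures the spread between these libraries, which may be technical.

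UPF1 is an RNA helicase that is central to the nonsense-mediated decay (NMD) of mRNA. When phosphorylated, it recruits decay factors to the RNA it sits on. A miRNA begins as a hairpin in a longer transcript. Drosha, held by Dgcr8, cuts the hairpin out in the nucleus, exportin-5 carries it to the cytoplasm, and Dicer1 trims it to a duplex, of which one strand is loaded into an Argonaute protein. The loaded Argonaute pairs with target mRNAs, mainly through the seed near the 5′ end of the miRNA, and a GW182 protein bound to it recruits deadenylases that lead to repression and decay of the target. The comparisons ask how much of each of these mRNAs was recovered with p-UPF1, beyond the unspecific recovery of IgG and relative to its abundance in the lysate.

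The Argonaute mRNAs are paralogs, and their identity in the counts rests on the bases that differ. Over the aligned coding bases they were 71.6% to 75.5% identical in each pair (GENCODE M21 transcripts, 2537 to 2564 aligned bases). The most alike 60-base coding stretch is shown here to make visible how far reads can tell the 4 apart, with the 9 positions that are not the same in all 4 in capitals and the 51 shared positions in lower case (mm10 coordinates, minus strand, written 5′ to 3′).
Ago1, chr4:126448843-126448902: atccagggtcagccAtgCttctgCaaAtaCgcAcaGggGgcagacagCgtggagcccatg
Ago2, chr15:73121140-73121199: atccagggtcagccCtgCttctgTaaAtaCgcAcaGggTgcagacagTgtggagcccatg
Ago3, chr4:126363722-126363781: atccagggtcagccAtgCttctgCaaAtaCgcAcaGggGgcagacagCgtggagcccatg
Ago4, chr4:126510027-126510086: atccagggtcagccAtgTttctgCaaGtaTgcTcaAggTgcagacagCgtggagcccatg
In this stretch Ago1 and Ago3 are the same in every base, and a read that lies within it cannot be assigned to one of them. Such stretches were a small part of the transcripts. Of all 50-base words of its transcript, Ago1 shared 1.74% with a paralog, Ago3 0.778% and Ago2 0.029%. Ago4 and the 3 GW182 mRNAs shared no such word. How reads that fit several genes were counted is not given in the sources used here. Since Ago1 was much more abundant than Ago3, its shared words could weigh more in Ago3: the 1.69% of Ago1 words that Ago3 also holds, taken of the Ago1 level, came to between 18.0% (input) and 22.8% (p-UPF1) of the Ago3 level, so that the Ago3 counts are uncertain.

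Some of these mRNAs carry miRNA hairpins in their own exons. An exon of Dgcr8 holds a pair of hairpins, and the last exon of Tnrc6b holds one. Their mature miRNAs are printed with the seed (bases 2 to 8) in capitals (RefSeq, mm10). They show that transcripts of the pathway's own genes contain sequence of the kind that its processing enzymes act on.
Dgcr8, miR-1306-5p, chr16:18284288-18284310: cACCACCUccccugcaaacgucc
Dgcr8, miR-1306-3p, chr16:18284248-18284268: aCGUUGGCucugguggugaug
Dgcr8, miR-3618-5p, chr16:18284602-18284623: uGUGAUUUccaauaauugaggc
Dgcr8, miR-3618-3p, chr16:18284562-18284583: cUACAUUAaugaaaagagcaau
Tnrc6b, miR-5113, chr15:80940049-80940071: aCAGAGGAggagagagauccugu
No seed was shared among these 5 miRNAs. The hairpin rows Mir1306 and Mir5113 of the count table were listed at 0 in all 9 libraries, and the hairpin of miR-3618 was not among the rows used here. These rows say nothing of the level of the mature miRNAs.

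The total count was between 19873687 and 24945286 for input, between 17372510 and 18550508 for IgG, and between 23251890 and 24802119 for p-UPF1. Levels are given as CPM (the count scaled to a fixed library total) after TMM scaling, which sets the typical gene equal between libraries. An mRNA recovered more or less is therefore meant relative to that typical gene, not as an absolute amount of RNA. Replicate libraries differed by more than counting noise in all 3 groups (chi-square per degree of freedom over genes, 1.38 to 1.73 for input, 2.83 to 4.04 for p-UPF1 and 4.64 to 9.94 for IgG), so none was a copy of another and the IgG libraries were the least alike. The 6 B cell markers listed were all detected and summed to 3200 to 3223 CPM in the lysate, 2494 to 2584 with IgG and 2398 to 2471 with p-UPF1. None of the 5 T cell, 3 NK cell and 3 erythroid markers had enough counts to be tested, and each of these lists summed to under 1 CPM in every library. The 4 myeloid markers summed to 127 to 139 CPM in the lysate, 85.9 to 91.5 with IgG and 57.1 to 59.3 with p-UPF1, nearly all of it from Adgre1 (131 ± 6.27 CPM in input), while Lyz2, Csf1r and Itgam stayed below 1 CPM. The 3 plasma cell markers summed to 21.8 to 25.2, 23.9 to 28.3 and 18.8 to 20.1 CPM in the same order. Their part in the results was not tested.

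In the lysate, the level per kilobase of exon (RefSeq) set the members in a clear order. Ago2, the Argonaute whose slicing activity is essential in mice, was highest at 25.4 ± 0.865 CPM per kb (SD, n = 3), followed by Ago1 at 17.9 ± 0.551 and Tnrc6a at 16.5 ± 0.159. Dgcr8 and Tnrc6c, at 13.8 ± 0.631 and 13.2 ± 0.328, overlapped in their libraries and could not be ordered. Drosha (11.8 ± 0.599), Dicer1 (9.73 ± 0.239) and Tnrc6b (7.17 ± 0.0859) came next without overlap between neighbours. Ago4 (2.15 ± 0.14) and Ago3 (1.62 ± 0.145) were far lower. The order of the highest depends on which transcript gives the length, since GENCODE gives Ago2 a longer 3′ UTR: per kilobase of the GENCODE transcript, Ago1 stood at 18.3, Tnrc6a at 17.1 and Ago2 at 14.8 CPM per kb in input. The GENCODE transcript of Ago3 is longer as well, and by it Ago3 stood at 0.793 and Ago4 at 2.15. In the p-UPF1 precipitate the order was different. Per kilobase of RefSeq exon, Ago1 led at 34.5 ± 0.392 CPM per kb, Dgcr8 (20.3 ± 0.894) and Ago2 (20.1 ± 0.953) overlapped behind it, and Tnrc6b (2.87 ± 0.325) was down with Ago3 (2.47 ± 0.349). With the longer GENCODE transcripts of Ago2 (13800 against 8031 bases) and Ago3 (15595 against 7635), both would stand lower. These overlaps therefore hold for the RefSeq lengths alone.

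**Figure D1:**
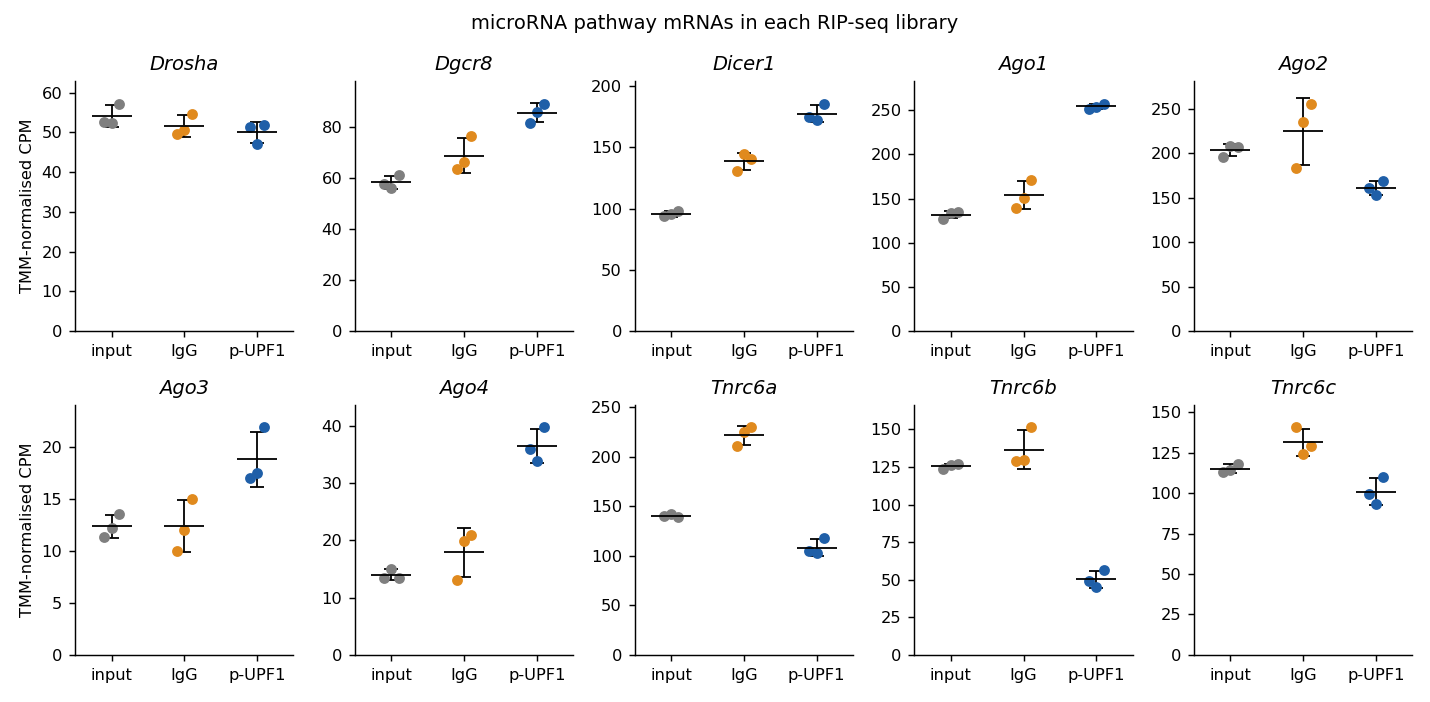
TMM-normalised CPM of the 10 miRNA pathway mRNAs in each RIP-seq library, with a panel for each gene, points for the libraries A, B and C of each group, and horizontal lines with bars for the mean ± SD (n = 3). The p-UPF1 libraries lay above all 6 others for Dgcr8, Dicer1, Ago1, Ago3 and Ago4, below all 6 others for Ago2, Tnrc6a, Tnrc6b and Tnrc6c, and overlapped the IgG libraries for Drosha.

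Of the 10 mRNAs, 5 were recovered more with p-UPF1 than with IgG (Ago1, Ago3, Ago4, Dicer1 and Dgcr8), 4 were recovered less (Ago2, Tnrc6a, Tnrc6b and Tnrc6c) and Drosha differed in neither direction at an adjusted P under 0.05. Over all tested genes, 40.4% were higher and 42.2% lower in the same comparison. Over input the count was again 5 higher and 4 lower, with the genes in the same direction as over IgG, and 40.8% of all tested genes were higher and 42.6% lower. The comparisons share the p-UPF1 libraries, so that the second is no independent repeat of the first. In 5 members every p-UPF1 library lay above all 6 others, as in 37.0% of all tested genes, and in 4 members every p-UPF1 library lay below all 6 others, as in 37.6%. The shares of members in each direction were thus close to those of all genes. The median log2 fold change of the members was 0.14 over IgG and 0.22 over input, against -0.03 in both comparisons over all tested genes. None of the 10 met the criterion of the study's methods for a p-UPF1-bound RNA, which sets a minimum log2 fold change of 1 against IgG and of 2 against input, with an adjusted P under 0.05 for both. Of all tested genes, 820 met it (6.25%). The count of members was 0 in edgeR, DESeq2 and limma-voom, and it was 0 at any P, because no member reached the fold minimum over input.

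**Figure D2:**
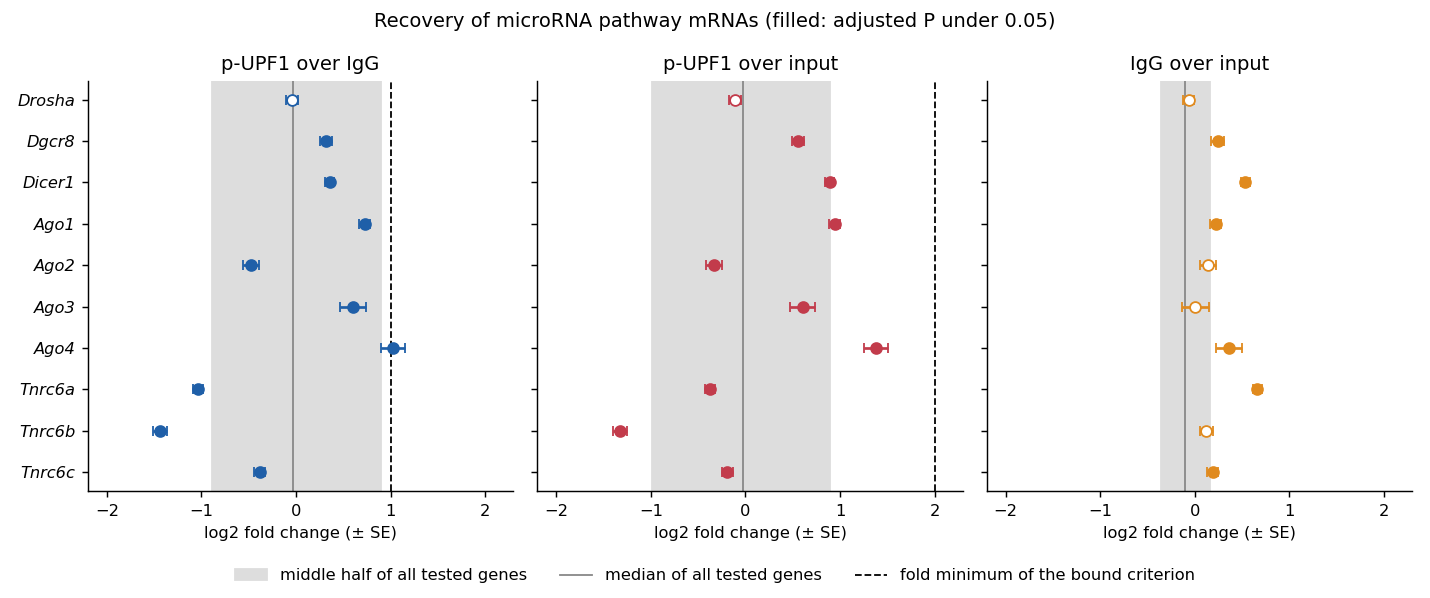
Log2 fold change of each member (horizontal axis, ± SE) in the 3 comparisons (p-UPF1 with IgG, p-UPF1 with input, and IgG with input), filled where the adjusted P was under 0.05, with the middle range of all tested genes in grey and the fold minimums of the bound criterion dashed. Only Ago4 reached the minimum over IgG, at 1.02, and no member reached the minimum over input.

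The mRNAs of the nuclear complex were recovered unequally. Drosha (chromosome 15, 12824804 to 12935291, plus strand) is the nuclease that opens the pathway. Its level was 52.6, 52.3 and 57.2 CPM in the input libraries, 49.6, 50.6 and 54.6 in IgG and 51.4, 47.0 and 51.8 in p-UPF1. All 9 values lay in a narrow band, and the p-UPF1 and IgG libraries overlapped. The log2 fold change was -0.04 ± 0.06 (SE) over IgG (adjusted P = 0.508) and -0.11 ± 0.06 over input (adjusted P = 0.0964). Drosha has the shortest 3′ UTR of the members by far, at 168 bases.

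Dgcr8 (chromosome 16, 18253948 to 18289251, minus strand) binds the hairpin for Drosha, and the complex is known to cut the hairpins in the Dgcr8 mRNA itself. Its level was 57.7, 56.2 and 61.3 CPM in input, 63.7, 66.3 and 76.7 in IgG, and 81.8, 86.2 and 89.3 in the p-UPF1 libraries. The 3 groups followed each other without overlap, input lowest and p-UPF1 highest. The recovery of Dgcr8 differed by a log2 fold change of 0.31 ± 0.06 over IgG (adjusted P = 0.000275) and 0.55 ± 0.06 over input (adjusted P = 5.85e-07). Dgcr8 shares 809 of its exon bases with Trmt2a, a tRNA methyltransferase gene on the opposite strand, and whether the counting used strand is not stated for RIP-seq. Trmt2a itself had a log2 fold change of -0.12 ± 0.06 over IgG (adjusted P = 0.0561) and 0.25 ± 0.06 over input (adjusted P = 0.000915), both below the values of Dgcr8. For IgG over input Trmt2a was at 0.37 ± 0.06 (adjusted P = 5.84e-05), above the 0.24 ± 0.07 of Dgcr8 (adjusted P = 0.00623). As a ratio of counts, which no scaling of the libraries touches, there were 1.07 to 1.1 Dgcr8 reads for each Drosha read in the lysate, 1.28 to 1.4 with IgG and 1.59 to 1.83 with p-UPF1.

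Dicer1 (chromosome 12, 104687740 to 104751968, minus strand), the enzyme that makes the mature duplex, was recovered more in both precipitates. Its level was 93.5, 95.8 and 98.2 CPM in input, 131, 144 and 140 in IgG, and 175, 172 and 185 in the p-UPF1 libraries. The groups did not overlap, and IgG stood between input and p-UPF1. The log2 fold change of p-UPF1 was 0.89 ± 0.05 over input (adjusted P = 1.82e-11) and 0.36 ± 0.05 over IgG (adjusted P = 2.15e-06), while IgG alone was 0.53 ± 0.05 above input (adjusted P = 1.8e-07).

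Among the Argonautes, Ago1, Ago3 and Ago4 were recovered more with p-UPF1 and Ago2 less. The 3 that rose lie next to each other on the minus strand of chromosome 4 (Ago3 at 126326994 to 126431670, Ago1 at 126435012 to 126468707 and Ago4 at 126489487 to 126533586), and Ago2 lies on chromosome 15 (73101625 to 73184947, minus strand). Ago1 measured 128, 133 and 135 CPM in input, 140, 151 and 171 in IgG, and 252, 254 and 257 in the p-UPF1 libraries. Every p-UPF1 library was far above the other 6. The recovery of Ago1 was 1.65-fold that of IgG (log2 fold change 0.72 ± 0.06, adjusted P = 4.22e-09) and 1.93-fold that of input (0.95 ± 0.06, adjusted P = 1.16e-10).

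Ago4, the member with the largest increases, measured 13.5, 15.1 and 13.5 CPM in input, 13.02, 19.9 and 20.9 in IgG, and 35.9, 33.8 and 39.8 in the p-UPF1 libraries. The p-UPF1 libraries were well above the rest, while the IgG libraries lay on both sides of input, with IgG A just below it. Ago4 was 2.03-fold higher than in IgG (log2 fold change 1.02 ± 0.12, adjusted P = 9.92e-07) and 2.6-fold higher than in input (1.38 ± 0.13, adjusted P = 2.76e-08), which placed it above 84.9% of all tested genes over input.

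Ago3 was the least abundant member, with 11.4, 12.2 and 13.6 CPM in input, 10.04, 12.04 and 15.03 in IgG, and 17.1, 17.5 and 21.9 in the p-UPF1 libraries. Input and IgG overlapped fully, and p-UPF1 stood above both. Ago3 had a log2 fold change of 0.60 ± 0.13 over IgG (adjusted P = 0.000564) and 0.61 ± 0.13 over input (adjusted P = 0.000467).

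Ago2 measured 196, 208 and 208 CPM in input, 183, 235 and 256 in IgG, and 162, 154 and 169 in the p-UPF1 libraries. The p-UPF1 libraries were below all others, and the IgG libraries were spread on both sides of input. Its log2 fold change was -0.48 ± 0.09 over IgG (adjusted P = 7.28e-05) and -0.34 ± 0.09 over input (adjusted P = 0.00168). Ago2 shares 196 exon bases with a long non-coding RNA gene on the opposite strand, Gm31725, which was not among the rows used here.

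Counted against each other, there were 0.641 to 0.651 Ago1 reads per Ago2 read in the lysate, 0.641 to 0.764 with IgG and 1.52 to 1.65 with p-UPF1. The ratio was 2.29 times that of IgG and 2.43 times that of input. The Ago4 to Ago2 ratio was 0.065 to 0.0725 in the lysate, 0.0711 to 0.0844 with IgG and 0.22 to 0.235 with p-UPF1. These ratios were chosen after the levels had been seen and are a description with no test. They do not depend on how the libraries are scaled. Of the Argonaute mRNA per kilobase of exon, Ago2 made up 53.9% ± 0.138 in the lysate, 52.4% ± 1.7 with IgG and 32.1% ± 0.642 with p-UPF1 (SD, n = 3). Ago1 made up 38.1% ± 0.268, 39.4% ± 2.37 and 55.1% ± 1.33 in the same groups, and Ago4 4.57% ± 0.262, 5.11% ± 0.612 and 8.91% ± 0.453. Thus Ago2 was the main Argonaute mRNA by this measure in input and IgG, and Ago1 was in p-UPF1, whereas by the GENCODE lengths above Ago1 already led in input.

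**Figure D3:**
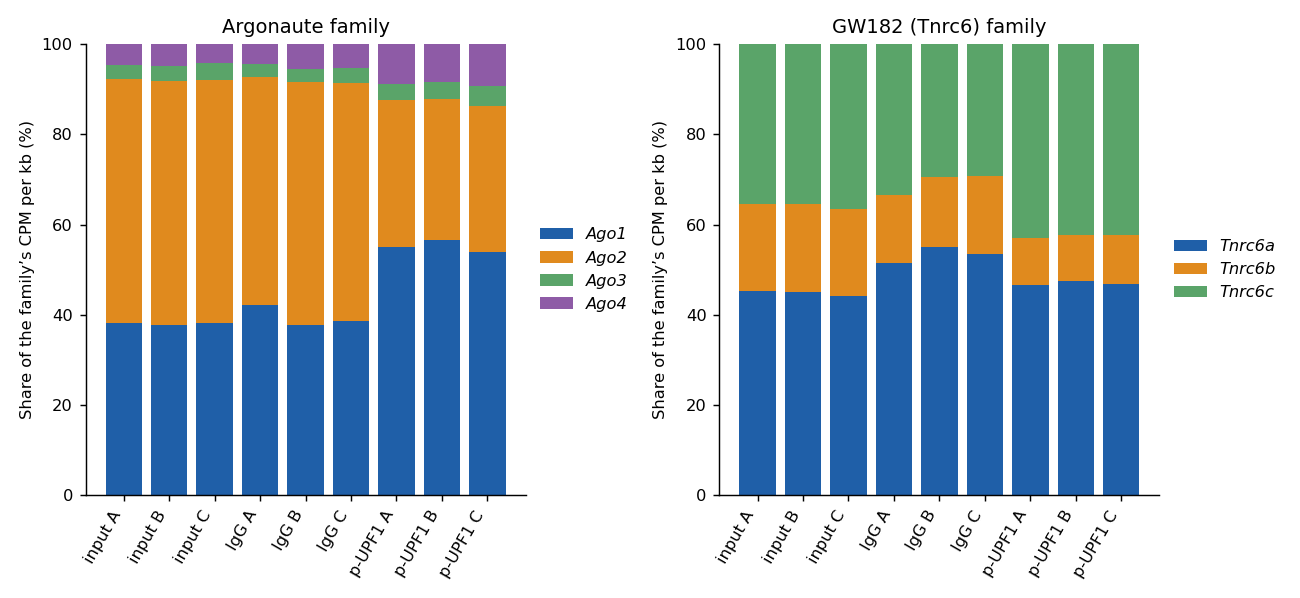
Share of each member in its family's summed CPM per kilobase of RefSeq exon (vertical axis, %), for the Argonaute family and the GW182 family, with a bar for each library. The Ago2 share was 50.5% to 54.1% in the input and IgG libraries and 31.3% to 32.4% in the p-UPF1 libraries, and the Tnrc6b share was 19.4% to 19.5% in input and 10.2% to 10.9% in p-UPF1.

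All 3 GW182 mRNAs were recovered less with p-UPF1 than with IgG or input, by very different amounts. Tnrc6b (chromosome 15, 80711313 to 80941086, plus strand) measured 124, 126 and 127 CPM in input, 129, 130 and 151 in IgG, and 49.0, 45.4 and 56.5 in the p-UPF1 libraries. The p-UPF1 libraries lay below the rest with a wide gap. Tnrc6b was 2.72-fold lower than in IgG (log2 fold change -1.44 ± 0.07, adjusted P = 1.26e-11) and 2.5-fold lower than in input (-1.32 ± 0.07, adjusted P = 3.52e-11), and 18.6% of all tested genes were lower still over input. Its 3′ UTR, at 11609 bases in GENCODE, is among the longest of the members there, beside those of Ago2 (11064) and Ago3 (12742).

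Tnrc6a (chromosome 7, 123031101 to 123195296, plus strand) measured 140, 142 and 139 CPM in input, 211, 225 and 229 in IgG, and 104, 102 and 118 in the p-UPF1 libraries. Here the IgG libraries were the highest and p-UPF1 the lowest, with no overlap. The log2 fold change was therefore further from 0 over IgG (-1.03 ± 0.05, adjusted P = 1.23e-11) than over input (-0.37 ± 0.05, adjusted P = 6.35e-06). Recovery of Tnrc6a with IgG was 1.58-fold that of input (log2 fold change 0.66 ± 0.05, adjusted P = 4.54e-08), a value above 94.6% of all tested genes.

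Tnrc6c (chromosome 11, 117653703 to 117763439, plus strand) measured 113, 114 and 118 CPM in input, 141, 124 and 129 in IgG, and 99.2, 93.5 and 110 in the p-UPF1 libraries. The p-UPF1 libraries were lower than all others, but the nearest p-UPF1 and input libraries were close. The log2 fold change was -0.38 ± 0.06 over IgG (adjusted P = 1.65e-05) and -0.19 ± 0.06 over input (adjusted P = 0.00719), and the call over input was lost when an IgG library was the TMM reference (-0.08, adjusted P = 0.253) and without the low-count filter (-0.06, adjusted P = 0.377). Within the family there were 0.903 to 0.933 Tnrc6c reads per Tnrc6b read in the lysate, 0.855 to 1.09 with IgG and 1.94 to 2.06 with p-UPF1. Tnrc6c rose from 35.8% ± 0.612 of the GW182 mRNA per kilobase in input to 42.5% ± 0.379 in p-UPF1, and Tnrc6b fell from 19.4% ± 0.0491 to 10.53% ± 0.321.

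The IgG precipitate alone was not neutral for these mRNAs. Ago1, Ago4, Tnrc6a, Tnrc6c, Dicer1 and Dgcr8 were higher in IgG than in input (6 of 10, against 18.2% of all tested genes), and 0 of 10 were lower in edgeR (34.7% of all tested genes), also at an unadjusted P under 0.05, in DESeq2 and in limma-voom. The values of the others were 0.14 ± 0.08 for Ago2 (adjusted P = 0.175), 0.12 ± 0.07 for Tnrc6b (adjusted P = 0.159), 0.01 ± 0.14 for Ago3 (adjusted P = 0.978) and -0.07 ± 0.06 for Drosha (adjusted P = 0.373). The median over the members was 0.21 against -0.10 over all tested genes. Of the genes called in this comparison 34.4% were higher in IgG, and this split moved with the scaling, to 52.6% by library size alone, to 50.8% when TMM took an input library for reference and to 51.2% when it took one of IgG. Under these scalings 8 members were higher and 0 lower, against 25.9% to 26.8% of all tested genes higher and at least 24.2% lower. The call of Ago4 (0.36 ± 0.14, adjusted P = 0.0378) was lost in limma-voom (0.33, adjusted P = 0.0708) and when any one of 7 libraries was left out, and that of Tnrc6c (0.19 ± 0.06, adjusted P = 0.0123) without input A or input B, so that the count of members higher in IgG ranged from 4 to 8 over the other settings apart from equal mitochondrial mRNA, where it was 9. The members are long mRNAs: all 10 have a coding sequence longer than the median of 1401 bases over 11910 tested genes (2322 to 5721 bases), and all 10 have more exon sequence than the median of 3010 bases. Across those genes, which are not independent replicates, Spearman's rho of coding length with the log2 fold change of IgG over input was 0.35. For p-UPF1 this rho was 0.129 over IgG and 0.198 over input. With exon length, over 12828 tested genes, rho was 0.32 for IgG over input. It was 0.321 for p-UPF1 over IgG and 0.365 for p-UPF1 over input. The part of length in the members' values was not tested.

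The 3′ UTR was longer than the median of tested genes (945 bases) in 9 of 10, Drosha being the exception. The coding sequence held 46.7% (Ago3) to 56.2% (Tnrc6c) G and C, and 3 members were above the median of 52.9%. Across the 11910 tested genes with a coding length, rho of 3′ UTR length with the log2 fold change of p-UPF1 was 0.31 over IgG and 0.31 over input. Of the 3 members with the longest 3′ UTRs in GENCODE, Ago3 was higher and Ago2 and Tnrc6b were lower in p-UPF1. All RefSeq exons of Ago2 (8031 bases) and of Ago3 (7635) are shorter than the GENCODE 3′ UTR of the same gene. The ranking thus depends on the annotation. The part of 3′ UTR length in the members' values was not tested. GENCODE annotates a transcript of the NMD type for Ago1 and Tnrc6a, 2 of the 10 members, and for 29.4% of 11910 tested coding genes. Of these, Ago1 was recovered more and Tnrc6a less with p-UPF1.

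The other genes of the pathway were described as lists of 36 genes in all, of which 34 could be tested. Over IgG 13 were higher and 18 lower, and over input again 13 and 18, with medians of -0.19 and -0.19 (-0.03 over all tested genes in both comparisons). These are 38.2% higher and 52.9% lower in each comparison, against 40.4% and 42.2% of all tested genes over IgG and 40.8% and 42.6% over input, and the counts of the single lists below are read against the same shares. Of the 34, 3 (8.82%, against 6.25% of all tested genes) met the p-UPF1-bound criterion: Adar, Xpo5 and Ipo8. The shares higher and bound were thus near those of all genes. Adar, an RNA-editing enzyme that deaminates adenosines in double-stranded RNA, measured 724 to 800 CPM in p-UPF1, against 119 to 127 in the lysate and 118 to 132 with IgG. That is a log2 fold change of 2.58 ± 0.05 over IgG (adjusted P = 1.06e-16) and 2.61 ± 0.05 over input (adjusted P = 6.92e-17). Xpo5, which encodes exportin-5, measured 465 to 515 CPM in p-UPF1, against 103 to 106 in the lysate and 84.8 to 98.0 with IgG, for log2 fold changes of 2.40 ± 0.05 (adjusted P = 3.62e-16) and 2.23 ± 0.05 (adjusted P = 5.94e-16). Ipo8, an importin that has been linked to Argonaute function, measured 264 to 279 CPM in p-UPF1, against 65.7 to 67.3 in the lysate and 70.3 to 86.7 with IgG, for log2 fold changes of 1.75 ± 0.06 (adjusted P = 9.06e-14) and 2.03 ± 0.06 (adjusted P = 1.24e-14). Ipo8 was at the edge of the criterion: it fell to 1.99 and 1.97 over input when libraries were scaled by size alone or by upper quartiles, and a test of the fold minimum itself (glmTreat) gave an adjusted P of 0.811 over input. For scale, Upf1, the mRNA of the precipitated protein, had log2 fold changes of 2.08 ± 0.04 and 2.04 ± 0.04 and met the criterion as well.

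**Figure D4:**
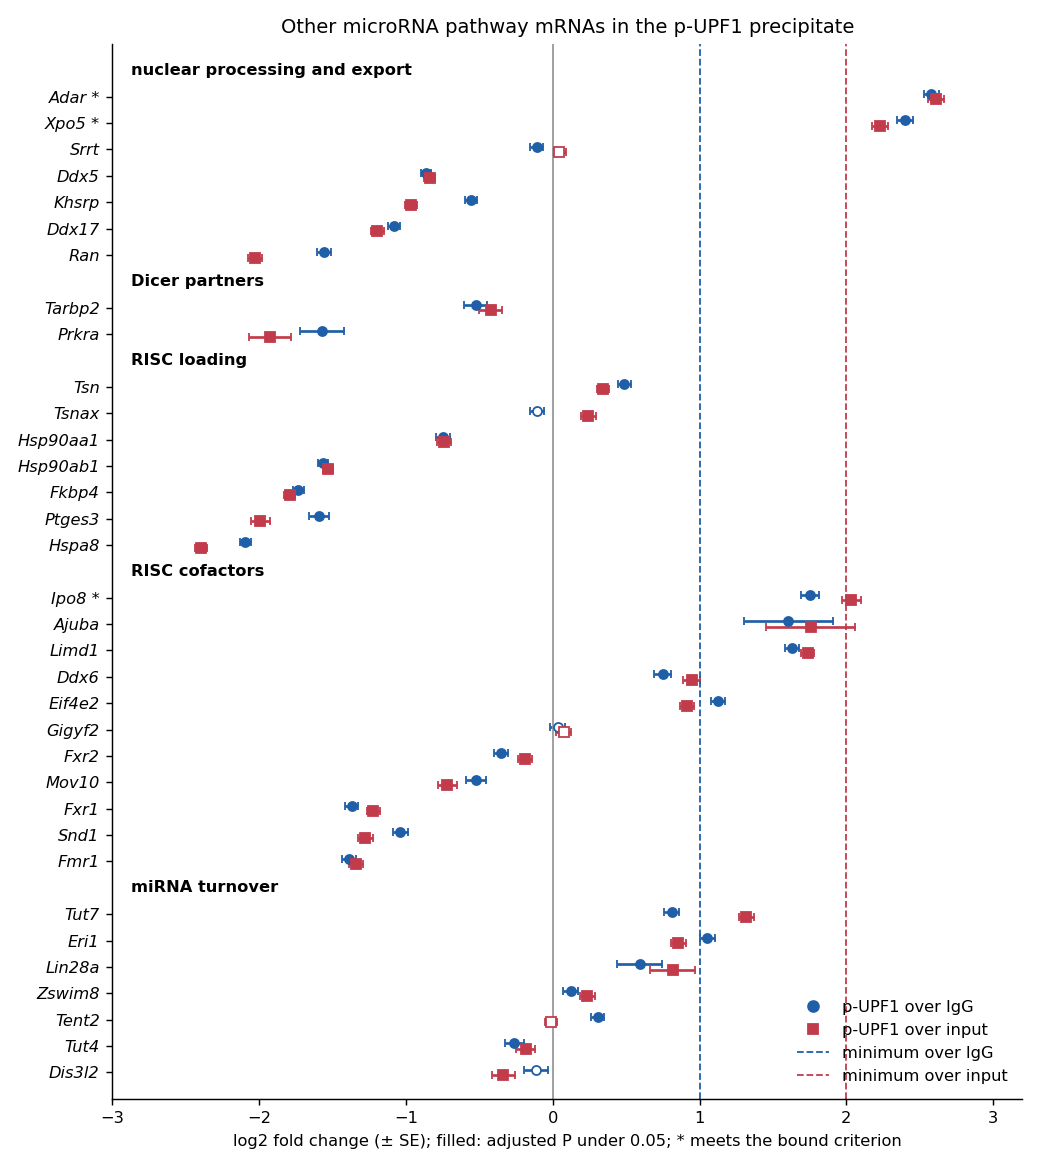
Log2 fold change (horizontal axis, ± SE) of 34 other miRNA pathway mRNAs for p-UPF1 over IgG (circles) and over input (squares), grouped by list, filled where the adjusted P was under 0.05, with an asterisk where the bound criterion was met. Adar, Xpo5 and Ipo8 lie beyond both dashed minimums, and Hspa8 has the lowest value over input (-2.40).

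By list, nuclear processing and export (7 tested) had 2 higher and 5 lower over IgG. Its lowest over input were Ran, the GTPase that drives export, at -2.03 ± 0.05 (adjusted P = 5.16e-16) and the helicase Ddx17 at -1.20 ± 0.04 (adjusted P = 1.16e-13). Both partners of Dicer1 were lower, Prkra at -1.93 ± 0.14 (adjusted P = 1.58e-09) and Tarbp2 at -0.42 ± 0.08 over input (adjusted P = 0.000111), in contrast to the direction of Dicer1. The RISC loading list, chaperones and co-factors that help a duplex into Argonaute, had 1 of 7 higher and 5 lower over IgG, with a median of -1.56. Hspa8, a constitutive heat shock protein, was lowest at -2.40 ± 0.04 over input (adjusted P = 7.96e-18), followed by the co-chaperone Ptges3 at -1.99 ± 0.06 (adjusted P = 2.62e-14). RISC cofactors split, with 5 of 11 higher and 5 lower over IgG, the lowest over input being Fmr1 at -1.34 ± 0.05 (adjusted P = 1.03e-13) and Snd1 at -1.28 ± 0.05 (adjusted P = 4.82e-13). Of the miRNA turnover list 5 of 7 were higher and 1 lower over IgG, and its lowest over input were the nuclease Dis3l2 at -0.34 ± 0.08 (adjusted P = 0.000787) and the uridyltransferase Tut4 at -0.18 ± 0.06 (adjusted P = 0.0131). Trim71 and Lin28b had too few counts to be tested.

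Of 5 host transcripts of miRNAs listed, 2 could be tested (Mir17hg and Mir22hg), and both were recovered less with p-UPF1 than with IgG or input. Mir17hg, the host of the miR-17 to miR-92 cluster, measured 8.35 to 11.7 CPM in p-UPF1, against 34.1 to 39.3 in the lysate and 76.1 to 81.0 with IgG. It was thus highest with IgG and lowest with p-UPF1, without overlap, at log2 fold changes of -2.90 ± 0.09 over IgG (adjusted P = 2.34e-14), -1.81 ± 0.10 over input (adjusted P = 1.94e-11) and 1.09 for IgG over input (adjusted P = 1.99e-08). Mir22hg had the same order, with 30.2 to 35.8, 48.0 to 57.7 and 12.2 to 14.9 CPM, and log2 fold changes of -1.98 ± 0.09 and -1.27 ± 0.10 in p-UPF1 over IgG and input (adjusted P = 4.22e-12 and 2.22e-09). Of 643 rows named for a miRNA hairpin, 145 had a count and 16 could be tested. Over input 2 of the 16 were higher (Mir425 at 1.31 and Mir3064 at 0.72 on the log2 scale) and 5 lower in p-UPF1, and over IgG 1 was higher (Mir425 at 1.43) and 8 lower. Mir3064 was -0.05 over IgG (adjusted P = 0.756), and its IgG libraries were 0.77 above input. Mir425 rested on 9 to 39 reads per library. Many of the tested rows lie within other genes on the same strand, among them Mir3064 in Ddx5 and Mir425 in Dalrd3. Whether their reads came from the hairpins or from the transcripts of those genes was not tested. The lowest over input were Mir682, at 39.5 to 43.4 CPM in input and 2.39 to 3.35 in p-UPF1, and Mir155, which rested on 8 to 17 reads in each input library and 0, 3 and 1 in p-UPF1.

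Genes with the most similar profiles were found by the distance between centred log2 CPM over the 9 libraries, among 8991 tested genes of at least 10 CPM. For Ago4, the member with the largest fold change over input, they were Etnk1 (distance 0.249), Ppm1k (0.296) and Pgap1 (0.315). For Tnrc6b, the member with the lowest, they were Lpp (0.171), Pja1 (0.224) and Snx9 (0.226).

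The scaling of the libraries sets where 0 lies in every comparison. When each library was scaled so that its mitochondrially encoded mRNAs (13 genes) summed to the same level, the median of all tested genes moved to 4.66 over IgG and 5.00 over input, and all 10 members were then higher in p-UPF1 and met the bound criterion, as did 12719 of all tested genes. Relative to the median of all tested genes, the 5 members that rose stayed above it and the 4 that fell stayed below it in both comparisons under the filters, tools and left-out libraries tried. A rescaling moves all genes of a library alike, so that it could hardly change these relative values and is no check of them. Ago4 ranged from 1.35 to 1.51 above the median over input, Ago1 from 0.94 to 1.08, Ago2 from -0.35 to -0.20, Tnrc6c from -0.22 to -0.06 and Tnrc6b from -1.38 to -1.19. Drosha lay on either side of it over input, from -0.11 to 0.02.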

How the data were processed

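RNA was sequenced from 9 libraries of activated mouse splenic B cells (3 input, 3 IgG and 3 p-UPF1). The deposited table gives the raw count of reads for each gene. Per the labels, the authors used cutadapt, HISAT2 and featureCounts with mm10, with no versions given, and a directional library kit. The study's methods describe unstranded alignment for RNA-seq and do not give the strand setting of the RIP-seq counting separately. Reads without molecular identifiers were counted, so counting error understates the true error.

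The table names its columns by group and letter, and the labels give replicate numbers, so columns were used as members of a group and not paired, and a block by letter was an alternative added after seeing the data. Gene numbers were matched to RefSeq (GRCm38), and 25275 of 27179 had a symbol. Coding and UTR lengths came from GENCODE M21, and coding sequences were aligned with mafft 7.526. Genes were kept by filterByExpr (minimum count 10, minimum total 15), which left 13129 genes with 99.9% of counts. edgeR 4.0.16 (R 4.3.3) fitted the 3 groups with TMM factors, and glmQLFTest (two-sided, 6 residual degrees of freedom, prior count 0.125) gave each contrast, with Benjamini-Hochberg adjustment over all tested genes. SE came from the test statistic. The test script was checked on simulated counts in which few genes changed and all had the same dispersion. That check does not cover data like these, in which most genes were called and the IgG libraries differed more. limma 3.58.1 (voom), DESeq2 1.42.0, glmTreat, other scalings, filters and prior counts, an adjusted P of 0.01, fits of only the groups compared, and leaving out each library were alternatives.

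All 10 members were named. From each other list, genes that met the bound criterion (up to 5) and the 2 lowest over input were named, with the 3 nearest profiles of the highest and lowest member. The members and lists were chosen with earlier results of these data known. Trmt2a, Gm31725 and Adgre1 were named after their values were seen.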

Additional observations from a re-analysis of the deposited data

How the results depend on the processing

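Counts of members, other pathway genes and all tested genes mostly stayed within 1.5 times their values, and leaving out any one library moved none of them beyond that. Scaling to equal mitochondrially encoded mRNA was the largest exception, and the others are given after it. It moved the members higher in p-UPF1 to 10 over IgG and 10 over input, with 0 and 0 lower, the other pathway genes to 34 and 34 higher with 0 and 0 lower, and all tested genes to 13051 higher and 4 lower over IgG and 13048 higher and 7 lower over input. For IgG over input it gave 21 other pathway genes higher and 0 lower, and 6116 of all tested genes higher and 1093 lower. The bound criterion was then met by 10 members, 34 other pathway genes and 12719 of all tested genes. Log2 fold changes turned positive over IgG for Ago2 (4.21), Tnrc6a (3.66), Tnrc6b (3.25), Tnrc6c (4.32) and Drosha (4.65), over input for Ago2 (4.70), Tnrc6a (4.67), Tnrc6b (3.72), Tnrc6c (4.85) and Drosha (4.93), and for IgG over input for Drosha (0.28). That scaling moves every gene of a comparison by the same amount. The other pathway genes in IgG over input, 7 higher and 14 lower as reported, were 17 and 6 by library size alone, 13 and 8 with upper-quartile factors, 16 and 6 when TMM took an input library for reference, 17 and 6 when it took an IgG library, 15 and 8 without the low-count filter, and 16 and 6 in a fit of only these groups, which left 3039 of all tested genes lower. At an adjusted P under 0.01, 9 were lower. glmTreat left 541 of all tested genes bound. The fit of only these groups changed the scaling as well as the samples. The causes of these changes were not tested, apart from the stricter tests.

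Among the members, Drosha became lower in p-UPF1 by library size alone (-0.20 over IgG, adjusted P = 0.00462; -0.16 over input, adjusted P = 0.0217), with upper-quartile factors (-0.18 and -0.18) and, over input, without IgG replicate A (-0.12, adjusted P = 0.0471). In IgG over input, both Ago2 and Tnrc6b became higher by library size alone (0.26 and 0.24), with upper-quartile factors (0.21 and 0.19), when TMM took an input (0.24 and 0.22) or an IgG library (0.25 and 0.23) for reference, with equal mitochondrial mRNA (0.49 and 0.47), without the low-count filter (0.23 and 0.21) and in a fit of only these groups (0.25 and 0.23), and Ago2 also without IgG replicate A (0.26, adjusted P = 9.03e-05). Ago4 lost its call there in limma-voom (0.33, adjusted P = 0.0708), without each input library, without IgG replicate B or C and without p-UPF1 replicate A or B (0.22 to 0.40), and Tnrc6c without input replicate A (0.16) or B (0.18). The table letters its replicates and the labels number them, and no source says that a letter marks a shared lysate. The correlation of deviations from the group means was -0.001 to 0.056 in 9 pairs of libraries of the same letter and -0.059 to 0.023 in 18 pairs of different letters, and not every library correlated best with its own letter. A fit with the column letter as a replicate block, added after seeing the data, gave 5 members higher and 4 lower over IgG and over input, 5328 and 5547 of all tested genes higher and lower over IgG, and it changed no call of a member. At the depth of these libraries the least abundant member, Ago3, had 189 to 483 reads per library. Its SE of 0.13 limits what could be seen of a smaller difference.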
